A study of Mus musculus with 51 samples.

Results

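The members are the genes that encode the proteins of the cytosolic ribosome. They were chosen by symbol: rows named Rpl or Rps with a number, except Rps27a, together with Rpsa, Rplp0, Rplp1 and Rplp2, without processed copies whose symbol carries -ps. Of 86 such rows, 82 reached a count of 10 in at least 2 libraries and were kept, out of 40077 genes in the tables. The 4 rows left out were Rpl39l, Rpl10l, Rpl6l and Rps12l1, and the highest count of Rpl39l in any library was 8. Of the members, 33 belong to the small subunit and 49 to the large subunit, and 3 of the latter, Rplp0, Rplp1 and Rplp2, form its stalk.

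Most ribosomal proteins are needed in equal numbers, and their messenger RNAs are among the most abundant of a growing cell. These messengers begin with a cytosine followed by a tract of pyrimidines at the 5′ end (a 5′TOP motif), through which mTOR and the protein LARP1 control their translation and stability. Ubiquitin marks surplus ribosomal proteins for the proteasome and marks stalled ribosomes, and free RPL5 and RPL11 bind MDM2 and so raise p53.

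The study asked how UBA1, the enzyme that activates ubiquitin at the start of its transfer to proteins, shapes the response to IFN-γ and the immune cells of mouse tumors. RNA was sequenced from 51 libraries, 16 of cultured Myc-CaP cells and 35 of tumors grown under the skin. Myc-CaP is a prostate cancer line driven by a Myc transgene and was grown in male FVB mice, and B16-BL6 is a melanoma line grown in C57BL/6 mice. All cells and tumors of the sgRNA, vector and drug experiments are compared only within their own experiment.

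In B16-BL6, 3 tumors carried a control guide RNA (sgNC) and 4 a guide against Uba1 (sgUba1). In Myc-CaP, 3 tumors carried sgNC and 7 sgUba1, 3 carried an empty vector (EV) and 4 a vector for Uba1 overexpression (OE), and 6 tumors came from mice given vehicle and 5 from mice given TAK-243, an inhibitor of UBA1. In cells, an experiment on TAK-243 had untreated controls, TAK-243 at 50 nM, IFN-γ, and both, with 2 libraries each. A second experiment on cells had a control guide (NC) and sgUba1, each with PBS or IFN-γ, with 2 libraries each. According to the study's methods the sgUba1 lines were grown from sorted single cells, so a line may carry differences other than that in Uba1. The overexpressing line was made with a lentiviral vector and drug selection. Tumor cells were injected into both flanks, so that tumors of a group may share a mouse, which the labels do not give.

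Library totals ran from 8652100 to 38032400 counts, with a median of 26121300. They lay between 12861000 and 16793900 in the TAK-243 experiment on cells, between 26768600 and 38032400 in the sgRNA experiment on cells, and between 26348000 and 35693200 in B16-BL6 tumors. They lay between 10668700 and 14168300 in Myc-CaP sgRNA tumors, between 8652100 and 12569900 in EV and OE tumors, and between 26121300 and 35047100 in vehicle and TAK-243 tumors. Depth differed more between experiments than within them.

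The labels call all samples epithelial. The melanoma gene Dct stood at a median TPM (transcript level scaled for gene length and to a common total) of 3911 in B16-BL6 tumors, and Myc at 1654 TPM in Myc-CaP tumors and 649 TPM in Myc-CaP cells. The epithelial gene Epcam was below 10 counts in the cells. Of 16 leukocyte markers, 6 had 0 counts in all 16 cell libraries, and Lyz2, the most abundant in tumors, had a median of 181 TPM in Myc-CaP and 74.2 TPM in B16-BL6 tumors. Tumors are mixtures, and for a bulk value fewer cells of a type and less RNA per cell cannot be told apart.

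The label sgUba1 was checked against the RNA of Uba1, in CPM, counts scaled to a common library total with edgeR's TMM factors. In Myc-CaP tumors Uba1 stood at 320, 325 and 337 CPM with sgNC, and at 197, 202 and 211 CPM in sgUba1 replicates 1 to 3. In sgUba1 replicates 4 to 7 it stood at 373, 361, 368 and 383 CPM, above every control. The RNA of Uba1 was thus not lower in these 4 tumors. The label names a guide, and the study assessed depletion by Sanger sequencing and immunoblot. The level of UBA1 protein in these tumors cannot be read from RNA. The calls and medians of the members in Myc-CaP sgUba1 tumors are therefore given for all 7 and for the 3 with lower Uba1. This choice was made after the values were seen. Calls on markers of cell types and on other gene lists are given for all 7 only. Over genes with at least 20 counts in a pair of tumors together, pairs had a chi-square of 10 to 22.7 for each degree of freedom among replicates 1 to 3, 9.71 to 15 among replicates 4 to 7, and 61.3 to 86.9 between these sets, while pairs of sgNC tumors had 13.2, 62.1 and 83.8. Both larger values involve sgNC replicate 2, which stood apart from the other controls. Its 10 most abundant genes took 15.7% of counts, the highest share of all libraries. Prostate markers summed to 3379 CPM in it and to 5043 and 4138 CPM in sgNC replicates 1 and 3. The study describes more than 1 guide against Uba1, the labels do not say which guide or line a tumor came from, and values for all 7 tumors may mix lines. In B16-BL6 tumors Uba1 stood at 410, 455 and 414 CPM with sgNC and at 208, 220, 228 and 247 CPM with sgUba1. Cells with sgUba1 had 295 and 283 CPM against 533 and 526 CPM in controls, and OE tumors had 731, 631, 722 and 747 CPM against 310, 278 and 292 CPM with EV.

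The members differed widely in level between genes. By median TPM over all libraries the 5 most abundant were Rpl41 with 6712, Rps27 with 4375, Rpl23a with 4080, the stalk protein gene Rplp1 with 3883 and Rps29 with 3540. In all, 57 of the 82 members had a median above 1000 TPM. Rplp0, the base of the stalk, had 3198 TPM and its partner Rplp2 1880 TPM, and Rpsa, a small-subunit protein also known as a laminin receptor, had 1816 TPM.

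Of the genes of p53 surveillance, Rpl11 had a median of 1449 TPM and Rpl5, whose protein joins 5S ribosomal RNA, 64.1 TPM. Only 4 members had a median below 10 TPM, namely Rps2 with 5.42, Rps3a2 with 1.45, the muscle paralog Rpl3l with 0.751 and Rps4l with 0.578. Where a gene has a close paralog, 1 of the pair dominated: Rpl22 had 1212 TPM and Rpl22l1 164, Rpl7 had 1369 TPM and Rpl7l1 71, and Rps27 stood above Rps27l, which had 357. Rps4x had 1817 TPM, Rpl3 302, Rpl39 1181 and Rpl10 364.

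Near-identical processed copies complicate these levels. The tables hold 295 rows of copies with -ps symbols for 61 members, and counts at a member and at its copies can be assigned to either. In Myc-CaP tumors 99.8% of the counts of Rps2 and its copies lay at the copies, and in B16-BL6 tumors 0.312%. The same share was 99.7% against 0.11% for Rps18, 92.6% against 0.459% for Rps7, 87.6% against 0.00719% for Rpl34 and 81.5% against 0.0171% for Rpl3, genes singled out here, with Rpl29, after their values were seen. Rps2, whose protein lies at the entry of the messenger RNA channel, thus read 4.33 TPM in Myc-CaP tumors and 2162 TPM in B16-BL6 tumors. Rpl10, which completes the large subunit late in its assembly, had 89.6% and 80.2% at copies in the 2 models. Rpl29 read 113 TPM in Myc-CaP and 1116 TPM in B16-BL6 tumors, although 0.922% of its counts in all libraries lay at copies. Levels of these genes cannot be compared between models, where line and mouse strain cannot be told apart, and the cause of the split was not tested.

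**Figure D1:**
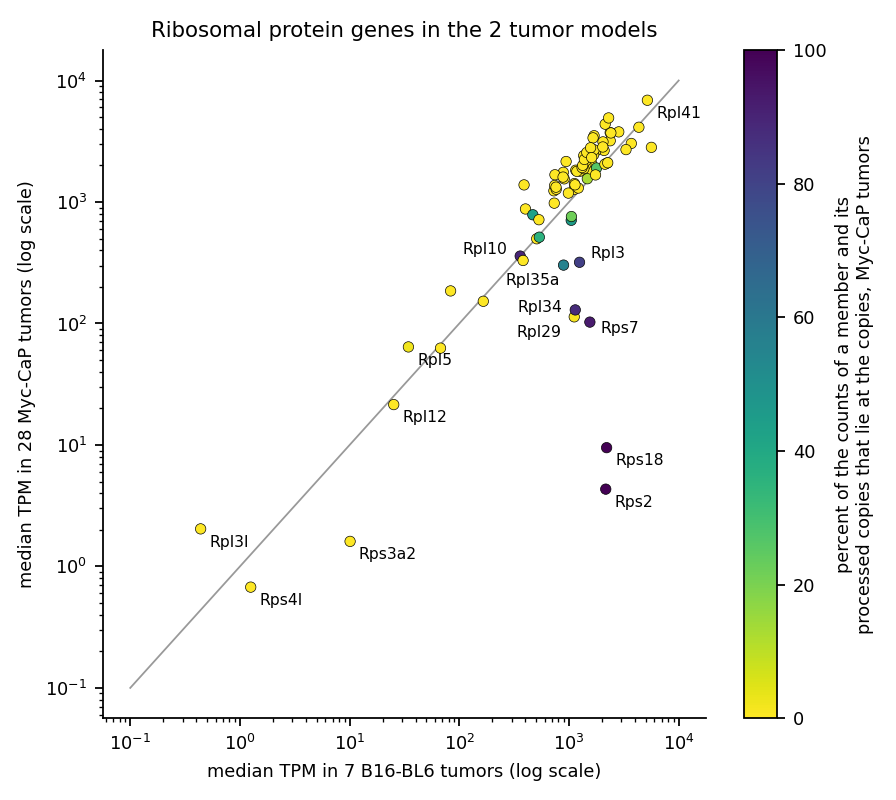
Median TPM of each of the 82 members in 28 Myc-CaP tumors (vertical, log scale) against 7 B16-BL6 tumors (horizontal, log scale), each point 1 member, colored by the percent of its counts and those of its copies that lie at the copies in Myc-CaP tumors. Rps2 (4.33 against 2162 TPM) and Rps18 (9.5 against 2201 TPM) lie farthest below the line of equal levels.

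In the plot of the 2 tumor models most members lie above the line of equal levels, higher in Myc-CaP than in B16-BL6 tumors. Rps2 and Rps18 lie far below it, and Rpl10, read mostly at copies in both models, lies on it. Fold changes were also recomputed with the counts of copies added, which alters those of some genes within an experiment, Rpl10 among them.

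Together the members took between 3.54% and 5.17% of the counts of a library, with a median of 4.53%, and between 10.7% and 15.5% of TPM, with a median of 13.4%. In cells of the TAK-243 experiment the share of counts was 4.46% and 4.42% in controls, 4.21% and 4.27% with TAK-243, 4.91% and 4.91% with IFN-γ, and 4.54% and 4.48% with both. By counts the IFN-γ libraries thus lay above the controls and the TAK-243 libraries below them. In TPM these groups had, in the same order, 12.5% and 12.5%, 12.6% and 12.8%, 12.5% and 12.4%, and 13% and 12.9%, without a rise with IFN-γ alone. Without the noncoding RNA Rmrp and Ccnb1ip1, which took 12.9% and 3.23% of TPM in IFN-γ replicate 1 and 9.76% and 2.46% in control replicate 1, the share of TPM was 14.2% and 14.1% in controls, 14.3% and 14.6% with TAK-243, 14.9% and 14.8% with IFN-γ, and 15.1% and 14.9% with both. Thus in this experiment an IFN-γ rise was seen in counts but not in the deposited TPM. It appeared in TPM only without these 2 genes, whose own shares were higher with IFN-γ than in controls. A fall with TAK-243 was seen in counts only. In NC cells of the sgRNA experiment the share of counts was 4.53% and 4.22% with PBS and 4.46% and 4.42% with IFN-γ. Their TPM without Rmrp and Ccnb1ip1 gave 14.6% and 13.2%, and 14.2% and 14.1% with IFN-γ. Both measures overlapped there. In sgUba1 cells the share of counts was 4.27% and 4.12% with PBS and 4.79% and 4.56% with IFN-γ.

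**Figure D2:**
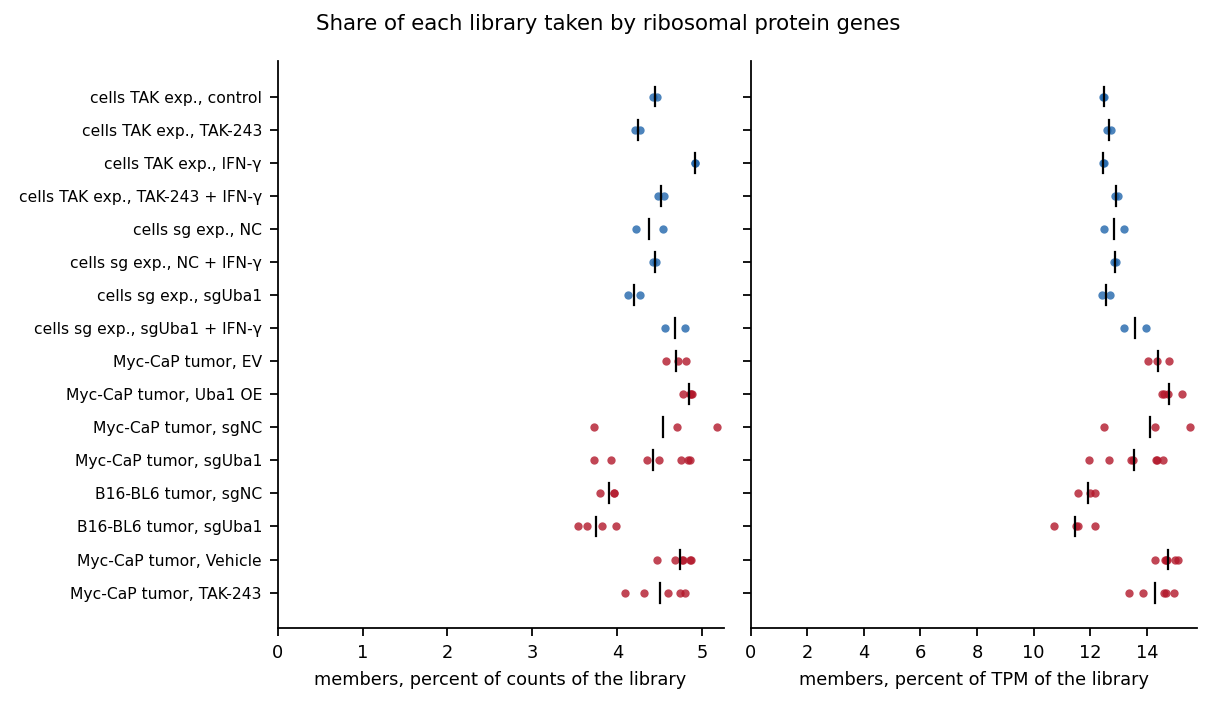
Percent of counts (left) and of TPM (right) that the 82 members took in each library, each point 1 library, each vertical bar a group mean, cells in blue and tumors in red. Shares of counts run from 3.54% to 5.17%, and the TAK-243 cells lie below their controls in counts (4.21% and 4.27% against 4.46% and 4.42%) but not in TPM.

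The plot of shares shows overlap between the groups of every tumor experiment. With sgNC the Myc-CaP tumors had 5.17%, 3.73% and 4.7% of counts, a spread wider than that of the 7 sgUba1 tumors, which lay between 3.73% and 4.85%. B16-BL6 tumors had 3.96%, 3.96% and 3.79% with sgNC and 3.64%, 3.99%, 3.82% and 3.54% with sgUba1.

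Small and large subunit genes did not keep the same ratio in all groups. In cells the summed counts of small-subunit members were 0.586 and 0.567 of those of the large subunit with NC, and 0.641 and 0.65 with sgUba1. With IFN-γ the ratio was 0.57 and 0.574 with NC and 0.661 and 0.664 with sgUba1, and so the sgUba1 libraries lay above all NC libraries. TAK-243 went the other way, with a ratio of 0.627 and 0.627 in controls and 0.609 and 0.611 with TAK-243, and of 0.617 and 0.622 with IFN-γ and 0.602 and 0.601 with both. In Myc-CaP tumors the ratio was 0.611, 0.626 and 0.605 with sgNC, 0.645, 0.627 and 0.645 in sgUba1 replicates 1 to 3, and 0.569, 0.582 and 0.584 in replicates 4, 6 and 7, with replicate 5 the lowest of the 10 tumors. Replicates 1 to 3 thus lay above the controls and replicates 4 to 7 below them. B16-BL6 tumors overlapped, with 0.663, 0.669 and 0.678 with sgNC and 0.676, 0.671, 0.666 and 0.682 with sgUba1. The ratio also overlapped between EV (0.606 to 0.626) and OE tumors (0.599 to 0.609). It did so between vehicle (0.591 to 0.622) and TAK-243 tumors (0.598 to 0.615) as well.

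The first comparison asked whether blocking UBA1 with TAK-243 changes these messengers in cultured Myc-CaP cells. A gene was called when its p-value from edgeR's quasi-likelihood test, adjusted over all genes tested, was below 0.05, and all fold changes are on a log2 scale. Of 82 members, 79 had enough counts to be tested, and the low-count genes Rpl3l, Rps3a2 and Rps4l had not. With TAK-243, 36 members were called higher and 14 lower, where 32.3% and 34% of all 14551 genes tested were called, and by library sizes alone 17 and 34, where 3895 and 5681 of all genes were called.

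That balance thus depended on scaling. With DESeq2's size factors (RLE) 40 members were called higher and 13 lower, for which no share of all genes is given. The median fold change was then 0.04 for all genes and 0.08 for the members. With library sizes alone the median fold change of all genes went from 0.03 to −0.09, a shift of −0.12, and that of the members from 0.07 to −0.05, so that the members lay 0.04 above all genes under both. When a library was left out, the members' median ran from 0.009 to 0.06. Without regard to calls, 43 members were higher and 14 lower in both treated libraries than in both controls, where 41.1% and 39.9% of all genes were so. For this comparison, what follows names members called in the same direction under all 15 alternatives (scalings, DESeq2, no filter, added copies, a replicate block and 8 omissions of a library) unless stated. There were 28 such members, 16 higher and 12 lower.

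In GENCODE M21 (GRCm38) the genes with the largest falls lie apart: Rpl3 (ENSMUSG00000060036.14) at chr15:80077791-80091868, Rpl10a (ENSMUSG00000037805.15) at chr17:28328471-28331033, Rpl13a (ENSMUSG00000074129.14) at chr7:45125558-45128761, Rps9 (ENSMUSG00000006333.14) at chr7:3703993-3706897 and Rpl22l1 (ENSMUSG00000039221.10) at chr3:28805436-28807424. Rpl8 (ENSMUSG00000003970.9), which fell with sgUba1, lies at chr15:76904078-76906314.

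In the small subunit, Rps9, whose protein lies where messenger RNA enters and binds early in assembly, had 595 and 601 CPM in controls and 440 and 448 CPM with TAK-243. The treated libraries lay below both controls, and the log2 fold change was −0.43 (SE 0.03, adjusted p 5.36e-14, lower in 2 of 2). Rps20, a protein of the head of the subunit that bears ubiquitin on stalled ribosomes, had 375 and 361 CPM in controls and 293 and 304 CPM with TAK-243. It fell in both libraries, with a fold change of −0.30 (adjusted p 8.93e-10).

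Other small-subunit genes rose. Rps15a, whose protein binds the central domain of 18S ribosomal RNA, had 401 and 398 CPM in controls and 496 and 516 CPM with TAK-243. Its groups did not overlap and the fold change was 0.34 (SE 0.03, adjusted p 1.81e-11). Rps14, lost in the 5q- syndrome of bone marrow, had 537 and 531 CPM in controls and 653 and 648 CPM with TAK-243, a fold change of 0.29 (adjusted p 3.54e-10). Rps24, mutated in some patients with Diamond-Blackfan anemia, had 778 and 772 CPM and then 898 and 936 CPM, a fold change of 0.24 (adjusted p 3.9e-09). Both were higher in 2 of 2 treated libraries. By counts, 12 small-subunit members were called higher and 6 lower. Rps6, the substrate of the S6 kinases, overlapped between the groups, with 901 and 900 CPM in controls and 889 and 913 CPM with TAK-243, and so did Rps10, another target of ubiquitin on stalled ribosomes, with 375 and 361 CPM against 373 and 375 CPM.

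In the large subunit the falls were larger. Rpl3, whose protein reaches toward the catalytic center, had 209 and 219 CPM in controls and 131 and 132 CPM with TAK-243. The fold change was −0.71 (SE 0.04, adjusted p 1.71e-15), and with the counts of its copies added it was −0.63. Rpl10a had 521 and 506 CPM in controls and 338 and 339 CPM with TAK-243, a fold change of −0.60 (SE 0.03, adjusted p 2.63e-17). Rpl13a, which can leave the ribosome in cells treated with IFN-γ to silence certain messengers, had 981 and 998 CPM in controls and 667 and 670 CPM with TAK-243. Its fold change was −0.57 (SE 0.03, adjusted p 6.76e-18). In all 3 genes both treated libraries lay below both controls.

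Rising members of the large subunit moved less. Rpl32 had 525 and 537 CPM in controls and 655 and 675 CPM with TAK-243, a fold change of 0.32 (adjusted p 2.04e-11). Rpl24, a protein on the face that meets the small subunit, had 336 and 338 CPM and then 420 and 415 CPM, a fold change of 0.31 (adjusted p 1.59e-10). Rpl27 had 241 and 223 CPM and then 259 and 298 CPM, a fold change of 0.26 (adjusted p 4.85e-06). Rpl4, which lines the exit tunnel, had 1857 and 1854 CPM and then 2220 and 2213 CPM, a fold change of 0.26 (adjusted p 3.68e-11). In each of these 4 genes the lower treated library stood above the higher control. Counted over the whole subunit, 24 members were called higher and 8 lower. Rpl41, the most abundant member, fell from 1259 and 1256 CPM to 1121 and 1128 CPM, a fold change of −0.16 (adjusted p 2.88e-06).

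Stalk genes moved little. Rplp0 had 1932 and 1906 CPM in controls and 2131 and 2073 CPM with TAK-243, a fold change of 0.13 (adjusted p 1.82e-05) that lost its call with library sizes alone and without TAK-243 replicate 1. Rplp1 overlapped between the groups, with 600 and 596 CPM against 615 and 591 CPM (fold change 0.01, adjusted p 0.714). Rpsa had 2284 and 2262 CPM in controls and 2369 and 2348 CPM with TAK-243. Its fold change of 0.05 (adjusted p 0.0371), called in 5 of the 15 alternatives, changed sign to −0.07 with library sizes alone.

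Of 3 pairs of paralogs, 1 went apart. Rpl22, which also regulates splicing and its own paralog, had 192 and 197 CPM in controls and 225 and 231 CPM with TAK-243, while Rpl22l1 had 58.5 and 63.7 CPM in controls and 37.3 and 39.1 CPM with TAK-243. The fold changes were 0.23 (adjusted p 8.52e-07) for Rpl22 and −0.68 (SE 0.07, adjusted p 5.11e-10) for Rpl22l1, without overlap in either. Rpl7 and Rpl7l1 went the same way, with fold changes of 0.13 (adjusted p 7.82e-05), a call lost by library sizes alone, and 0.23 (adjusted p 2.24e-06). Rps27 and Rps27l had fold changes of 0.23 (adjusted p 6.62e-07) and 0.13 (adjusted p 0.0154), the latter called in 8 of the 15 alternatives. Among genes of p53 surveillance, Rpl11 had 479 and 473 CPM in controls and 522 and 522 CPM with TAK-243 (0.13, adjusted p 0.00017, not called by library sizes alone), and Rpl5 overlapped between the groups with 90.1 and 85.6 against 77.1 and 95.4 CPM (−0.04, adjusted p 0.647).

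**Figure D3:**
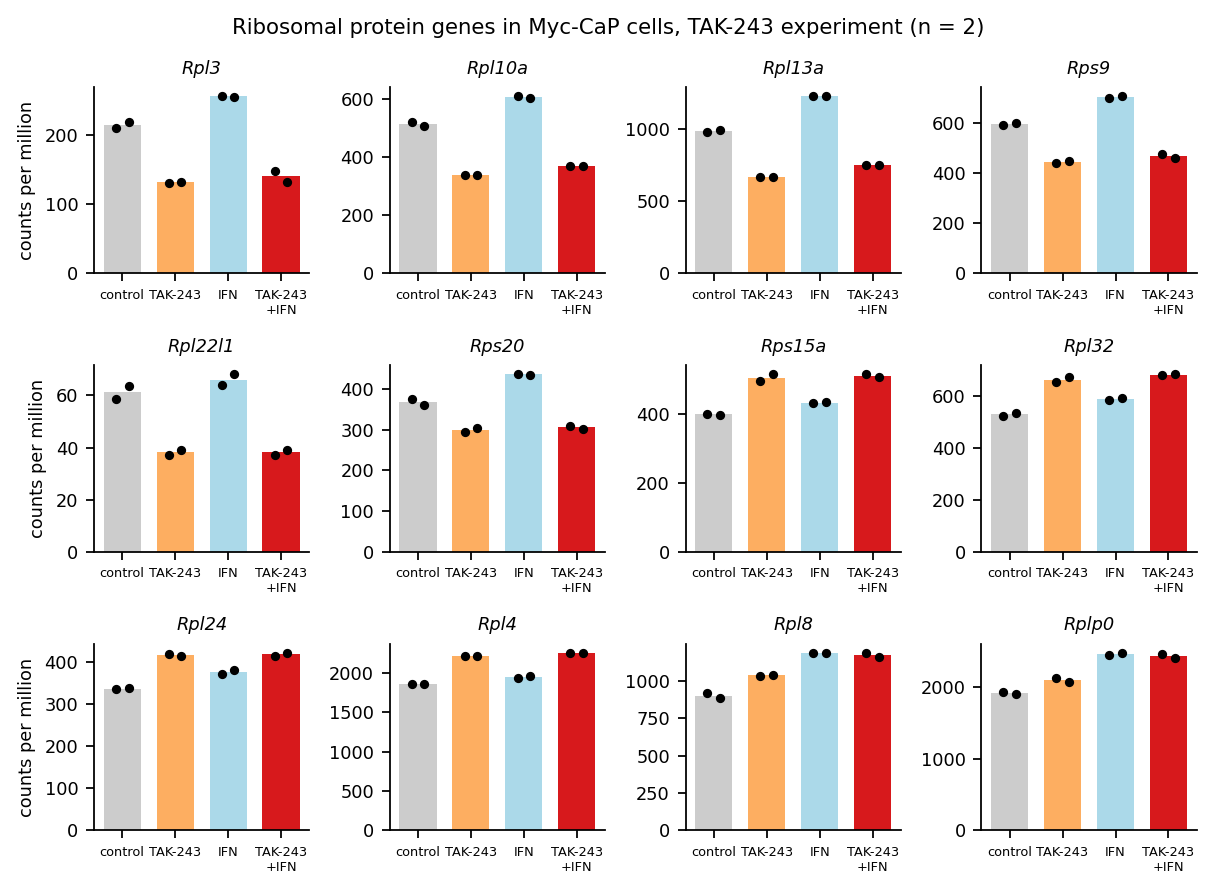
CPM of 12 members in Myc-CaP cells of the TAK-243 experiment, bars the mean of 2 libraries (axis from 0) and points the libraries, in controls, with TAK-243, with IFN-γ and with both. Rpl3, Rpl10a, Rpl13a, Rps9, Rpl22l1 and Rps20 lie lower with TAK-243 than without it, and Rps15a, Rpl32, Rpl24 and Rpl4 higher, with and without IFN-γ.

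The bars of the first 10 of these genes show the same order of TAK-243 and its control without and with IFN-γ. The second comparison asked for the effect of TAK-243 in cells that also received IFN-γ. With IFN-γ, 16 members were called higher and 36 lower, where 32% and 36.2% of all genes were called, so that the members' median was −0.07 and that of all genes 0.02. With library sizes alone 10 members were called higher and 48 lower, for which no share of all genes is given. All genes then shifted by −0.04 to a median of −0.02, and the members had −0.11. The members lay 0.09 below all genes under both scalings. Of the calls 41 of 52 held under all 15 alternatives, 8 of them higher and 33 lower.

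Rpl3 had 256 and 255 CPM with IFN-γ alone and 148 and 132 CPM with both agents. The treated libraries lay below the others by far more than replicates differed, a fold change of −0.87 (SE 0.04, adjusted p 5.42e-18). Rpl22l1 had 63.9 and 68.1 CPM with IFN-γ and 37.3 and 39.1 CPM with both (−0.79, adjusted p 1.57e-11). Rpl10a had 610 and 602 CPM and then 368 and 368 CPM (−0.72, adjusted p 2.53e-19), and Rpl13a had 1232 and 1234 CPM and then 752 and 750 CPM (−0.72, adjusted p 1.67e-20). Rps9 had 702 and 710 CPM and then 476 and 460 CPM (−0.59, adjusted p 1.89e-17). Each of these was lower in 2 of 2 libraries.

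The largest increases were again Rps15a, from 432 and 434 CPM to 516 and 507 CPM (0.24, adjusted p 2.16e-08), and Rpl32, from 584 and 594 CPM to 683 and 686 CPM (0.22, adjusted p 5.86e-08). Rpl4, Rps24 and Rpl24 followed with 0.21 (adjusted p 1.63e-09), 0.21 (adjusted p 7.76e-08) and 0.15 (adjusted p 4.21e-05). All 5 were higher in both libraries. Of the stalk, Rplp1 fell from 739 and 735 CPM to 680 and 686 CPM (−0.11, adjusted p 0.000798) and Rplp2 from 402 and 429 CPM to 375 and 375 CPM (−0.15, adjusted p 0.000156), while Rplp0 had −0.02 (adjusted p 0.523).

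The effects of TAK-243 without and with IFN-γ share no libraries. Across 79 members their fold changes had a Pearson r of 0.96, a description, as genes are not independent replicates. All 14 members lower without IFN-γ were among the 36 lower with it, and all 16 higher with IFN-γ were among the 36 higher without it. Another 4 members, Rplp2, Rps16, Rps21 and Rpsa, were called higher without IFN-γ, in 7, 4, 4 and 5 of the 15 alternatives, and lower with it, in all 15.

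Start-site sequences of some of these genes are shown because the 5′TOP motif is the element through which this family is controlled. They come from RefSeq (GRCm38.p6) and cover 10 bases before and 15 bases from the annotated start on the gene's strand. The longest run of at least 5 pyrimidines that begins with C is in capitals. For a gene with several annotated starts, the start with the longest run is shown. The first 4 fell with TAK-243, the next 4 rose with it, and the last 3 fell with sgUba1.
Rpl10a: gCCCCCCCagcggccgcaaactgca
Rpl13a: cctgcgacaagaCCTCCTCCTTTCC
Rps9: cttgtCTCTCTTTgtctcgggcctg
Rpl22l1: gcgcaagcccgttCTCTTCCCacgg
Rps15a: tttctgccatCTTCCCTCgccggtg
Rps24: gctggggtCCTTCCTTgcgcgttga
Rpl24: gctgttgctaggaaacagactgggc
Rpl4: tttcctgtgggagcagccgggtaga
Rpl35: ccgCCCTTTCCTCTTTCTCTCgaac
Rpl7a: CTCTTCTTTCTTTCTCCagcagccg
Rplp0: cgggtttcgaggaccgcctggttct

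Their positions, in the same order, are chr17:28328461-28328485, chr7:45128731-45128755, chr7:3704031-3704055, chr3:28805498-28805522, chr7:118116133-118116157, chr14:24490668-24490692, chr16:55966265-55966289, chr9:64173377-64173401, chr2:39005117-39005141, chr2:26910797-26910821 and chr5:115559457-115559481. Rpl13a, Rps15a and Rpl35 lie on the minus strand and the others on the plus strand. The table held a promoter for 61 of the 82 members, and entries for Rpl3, Rpl8, Rpl21, Rpl32, Rps20 and Rps29 are among the 21 missing. A gene was counted when any of its annotated starts had a run, so these counts depend on how many starts a gene has. A run stood in the window of 37 of the 61 (60.7%), against 9297 of 27025 genes (34.4%). It stood in 7 of 10 members lower with TAK-243, 13 of 28 higher and 16 of 22 not called. A match describes letters only, and no match says only that these letters are not in this window.

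The 300 bases around each start (250 before it and 50 from it) were searched for CCGGAAG on both strands. It stood at any start of 25 of the 61 members (41%) and of 9.93% of all genes with a promoter. CACGTG, the letters of the E-box that Myc proteins bind, stood in 6 members (9.84%) and in 8.09% of all genes with a promoter.

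The comparison of IFN-γ with untreated cells asked what IFN-γ alone does to these messengers. In the TAK-243 experiment 65 of 79 members were called higher with IFN-γ than without it and 0 lower by edgeR, where 19.6% and 9.39% of all genes were called. The members' median was 0.20 and that of all genes 0.04, and 78 of 79 members had a fold change above 0. By library sizes alone 52 were higher and 1 lower, for which no share of all genes is given, with a median of 0.13. That of all genes was then −0.04, a shift of −0.07. Of the 65 calls 51 held under all 15 alternatives. In 73 members both IFN-γ libraries lay above both controls, against 36.7% of all genes. No member lay below both, against 26.1% of all genes.

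Rpl8, whose protein lies near the catalytic center, had 916 and 886 CPM in controls and 1185 and 1189 CPM with IFN-γ, a fold change of 0.40 (SE 0.03, adjusted p 1.21e-12). Rps14 had 537 and 531 CPM and then 713 and 686 CPM (0.39, adjusted p 8.64e-12). Rplp2 had 313 and 323 CPM and then 402 and 429 CPM (0.38, adjusted p 2.15e-10), and Rplp0 had 1932 and 1906 CPM and then 2449 and 2481 CPM (0.36, adjusted p 1.46e-12). Rpl12, at the base of the stalk, had 28.2 and 24 CPM and then 36.6 and 31 CPM (0.37, adjusted p 0.00276), a call lost without control replicate 2 and without IFN-γ replicate 1. Each was higher in 2 of 2 libraries. Rpl5, the member below 0, had 75.8 and 86.4 CPM with IFN-γ, at −0.11. Of the genes that fell with TAK-243, Rpl3, Rpl10a and Rpl13a rose with IFN-γ, by 0.25, 0.24 and 0.32, and Rpl22l1 was not called (0.11, adjusted p 0.203). These 2 comparisons share their control libraries.

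The control guide cells of the sgRNA experiment gave a second measurement of IFN-γ. There 1 member was called higher, Rplp0, and 0 lower, where 3.03% and 0.856% of all genes were called. Rplp0 had 2058 and 1927 CPM with PBS and 2320 and 2300 CPM with IFN-γ, a fold change of 0.21 (adjusted p 0.0368, higher in 2 of 2). The members' median was 0.08, against 0.04 for all genes, and 0.01 with library sizes alone. The call was lost with each other scaling. With all libraries kept, the count lay between 0 and 11 under the alternatives, for which no share of all genes is given. Without NC replicate 1 the calls were 43 higher and 4 lower, where 2059 and 662 of 15972 genes were called. Without NC replicate 2 they were 7 and 3, where 1298 and 185 of 15971 genes were called, and in the 6 other omissions 0 members were called by edgeR. The median lay between 0.01 and 0.18 in these omissions. Both IFN-γ libraries lay above both controls for 29 members and below them for 4, against 32.8% and 18.1% of all genes. Across 79 members the fold changes of the 2 experiments had an r of 0.37, and whether they differ was not tested.

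Whether IFN-γ and TAK-243 act independently was tested as an interaction, the difference between the effect of TAK-243 with and without IFN-γ. It was called negative for 29 members and positive for 0 by edgeR, where 2.01% and 0.371% of all genes were called, and 57 had an unadjusted p under 0.05, as did 2154 of 14551 genes. The estimate was below 0 for 78 of 79 members, with a median of −0.14, and for 8492 of 14551 genes, with a median of −0.04. The strongest were Rpl10 (−0.31, adjusted p 0.0149, and −0.12 with its copies added), Rpl37 (−0.27, adjusted p 0.001), Rps21 (−0.27, adjusted p 0.001), Rps15 (−0.24, adjusted p 0.000472) and Rps29 (−0.24, adjusted p 0.0106).

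Rps15, at the head of the small subunit, shows the pattern: 564 and 557 CPM in controls, 525 and 511 with TAK-243, 705 and 707 with IFN-γ, and 559 and 547 with both. It rose more with IFN-γ in the absence of TAK-243 than in its presence. Rps21 had 232 and 229, 236 and 251, 278 and 276, and 241 and 245 CPM in the same order. The count of 29 fell to 4 with library sizes alone, and none of the 29 calls held under all 15 alternatives. Without a library it was 9 (control replicate 2), 17 (TAK-243 replicate 1), 10 (TAK-243 replicate 2), 17 (IFN-γ replicate 1), 8 (IFN-γ replicate 2), 4 (replicate 1 with both agents) and 0 (replicate 2 with both agents), while between 53 and 179 of all genes were called negative in these omissions.

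The next comparison asked whether loss of Uba1 by guide RNA acts as the inhibitor does. In sgUba1 cells without IFN-γ 3 members were called higher and 16 lower, where 16.2% and 13.6% of all 15530 genes tested were called. The median was −0.05, and that of all genes −0.00. The calls were 1 higher and 22 lower with factors computed without the members, for which no share of all genes is given. All genes then shifted by −0.03 to a median of −0.03, and the members had −0.08. The members lay 0.05 below all genes under both kinds of factors. In the small subunit 3 were higher and 3 lower, and in the large subunit 0 were higher by edgeR and 13 lower. Both sgUba1 libraries lay below both controls for 34 members and above them for 8, against 29.4% and 31.1% of all genes. Of the 19 calls 9 held under all 15 alternatives. The 2 NC libraries stood further apart than the other pairs in cells, with a chi-square between them of 18.1 for each degree of freedom, against 1.84 to 5.81 for the others. Without NC replicate 1 the calls were 28 higher and 18 lower (2959 and 2682 of all genes), and the median turned to 0.001. Without NC replicate 2 they were 3 higher and 36 lower (2578 and 2056 of all genes), with a median of −0.15, and without sgUba1 replicate 2 they were 1 higher and 8 lower (1536 and 1396 of all genes).

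In the small subunit Rps12, which lies at the beak, had 637 and 611 CPM with NC and 730 and 742 CPM with sgUba1. It was higher in 2 of 2, with a fold change of 0.24 (adjusted p 0.00209). Rps29 had 350 and 248 CPM and then 376 and 376 CPM (0.33, adjusted p 0.0493, called in 4 of 15 alternatives). Rps3, which holds incoming messenger RNA, fell from 529 and 459 CPM to 415 and 397 CPM (−0.28, adjusted p 0.00642), and lost its call without sgUba1 replicate 2.

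Large-subunit genes gave the largest falls. Rpl8 had 979 and 963 CPM with NC and 663 and 633 CPM with sgUba1, a fold change of −0.58 (SE 0.04, adjusted p 6.68e-06). Rpl7a had 1168 and 1295 CPM and then 852 and 856 CPM (−0.53, SE 0.05, adjusted p 3.49e-05). Rpl35, at the exit of the tunnel, had 643 and 894 CPM and then 496 and 525 CPM (−0.59, SE 0.12, adjusted p 0.00397). The groups of these 3 genes did not overlap, though the NC libraries of Rpl35 stood far apart.

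Rpl21 had 670 and 750 CPM with NC and 495 and 517 CPM with sgUba1 (−0.49, adjusted p 0.000178), and Rpl6 had 1340 and 1472 CPM and then 1031 and 1026 CPM (−0.45, adjusted p 7.37e-05). Rpl26, whose protein also binds the messenger of p53, had 580 and 594 CPM and then 472 and 442 CPM (−0.36, adjusted p 0.000369). Rplp0 had 2058 and 1927 CPM and then 1672 and 1592 CPM (−0.29, adjusted p 0.000862). All were lower in 2 of 2 libraries. Rpsa overlapped between the groups, with 2119 and 2354 CPM against 2226 and 2273 CPM.

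With IFN-γ, sgUba1 cells had 19 members called higher and 12 lower than NC cells with IFN-γ, where 17% and 22.4% of all genes were called, and a median of 0.06 against 0.01 for all genes. The calls were 31 higher and 8 lower with library sizes alone, where 3709 and 2641 of all genes were called, and the median was then 0.14 against 0.09 for all genes. Leaving out a library gave medians of 0.06 to 0.15. By subunit the calls were 11 higher and 1 lower in the small and 8 higher and 11 lower in the large subunit. The count of 31 was 53 (34 higher and 19 lower) without NC replicate 1 (3139 and 4038 of all genes) and also without NC replicate 2 (3141 and 4023 of all genes), 17 without NC IFN-γ replicate 1, 16 without NC IFN-γ replicate 2 and 20 without sgUba1 IFN-γ replicate 1. Of the calls 13 held under all 15 alternatives, 8 of them higher and 5 lower.

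Rpl8 had 1074 and 1049 CPM with NC and IFN-γ and 658 and 664 CPM with sgUba1 and IFN-γ (−0.68, adjusted p 1.13e-06). Rpl7a had 1358 and 1357 CPM and then 856 and 860 CPM (−0.66, adjusted p 3.68e-06), and Rplp0 had 2320 and 2300 CPM and then 1661 and 1671 CPM (−0.47, adjusted p 1.73e-05). Rpl35 (−0.57, adjusted p 0.00333, not called without sgUba1 IFN-γ replicate 2) and Rpl6 (−0.54, adjusted p 1.02e-05) were also lower in 2 of 2. The same large-subunit genes thus fell in both backgrounds.

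Higher members included Rps29, with 295 and 295 CPM in NC and 536 and 524 CPM in sgUba1 cells (0.85, SE 0.12, adjusted p 0.000153). Rpl10 had 146 and 150 CPM and then 256 and 235 CPM (0.73, adjusted p 0.000633), and 0.25 with its copies added. Rps27l, a p53 target, had 77.9 and 73.9 CPM and then 107 and 103 CPM (0.47, adjusted p 0.000149). Rpl22 had 180 and 179 CPM and then 257 and 241 CPM (0.47, adjusted p 0.00087), and Rps26 had 636 and 658 CPM and then 901 and 846 CPM (0.43, adjusted p 7.93e-05). All 5 were higher in 2 of 2 libraries.

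The interaction of sgUba1 with IFN-γ was called positive for 5 members and negative for 0 by edgeR, where 0.663% and 3.97% of all genes were called, and 17 had an unadjusted p under 0.05, as did 3342 of 15530 genes. The called members were Rps21 (0.51, adjusted p 0.0252), Rpl38 (0.46, adjusted p 0.0476), Rpl36a (0.39, adjusted p 0.0311), Rps27l (0.36, adjusted p 0.0494) and Rpl23 (0.35, adjusted p 0.0379). Rps21 had 302 and 273 CPM with NC, 286 and 281 with NC and IFN-γ, 235 and 234 with sgUba1, and 354 and 304 with sgUba1 and IFN-γ. It lay lowest in sgUba1 cells without IFN-γ and highest with it. None of the 5 held under all 15 alternatives. With all libraries kept, the count lay between 4 and 15 under them, for which no share of all genes is given. Without NC replicate 1 the calls were 16 positive and 6 negative, where 385 and 1587 of all genes were called, and without NC replicate 2 they were 35 and 4, where 551 and 2071 were called. The count was 0 without NC IFN-γ replicate 1 or 2, without sgUba1 replicate 1 or 2, and without sgUba1 IFN-γ replicate 1.

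Across 79 members the sgUba1 effects without and with IFN-γ, which share no libraries, had an r of 0.79. Lower in both were 10 members, of 16 and 12: Rpl21, Rpl26, Rpl29, Rpl35, Rpl6, Rpl7a, Rpl7l1, Rpl8, Rplp0 and Rplp2. Higher in both were 2, of 3 and 19, Rps12 and Rps29. The effects of sgUba1 and of TAK-243 in cells had an r of −0.34 without IFN-γ and −0.25 with it. None of the 16 members lower with sgUba1 was lower with TAK-243 and 11 were higher. With library sizes alone 6 of the 16 were higher and 3 lower.

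**Figure D4:**
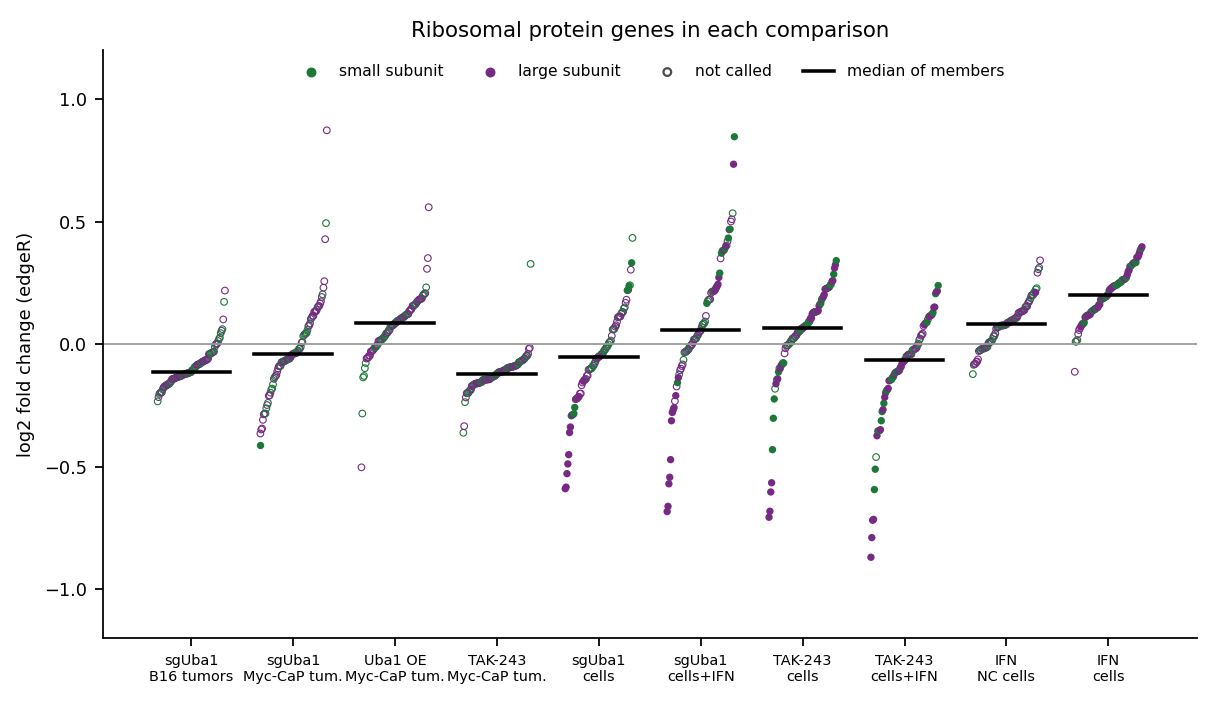
Log2 fold change (vertical, edgeR) of each member in 10 comparisons, each point 1 member in order of its fold change, filled where called, green for the small and purple for the large subunit, black bars the median of members. Medians run from −0.12 (TAK-243 in tumors) to 0.20 (IFN-γ in cells of the TAK-243 experiment), and that of TAK-243 in cells, 0.07, turns to −0.05 with library sizes alone.

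In the plot of fold changes by comparison the filled purple points at the lower end of the sgUba1 columns are the large-subunit genes just named. Because a line grown from a single cell can differ along whole chromosomes, the genes around each member were examined, a step added after the values were seen. For each member the median fold change was taken over the other genes tested within 5 Mb. Without IFN-γ this median and the member's own fold change had an r of 0.61 and a Spearman rho of 0.53 across 79 members. With IFN-γ r was 0.57. For TAK-243 in cells r was 0.16 without and 0.14 with IFN-γ. For sgUba1 in tumors r was 0.61 in B16-BL6, where neighbor medians ran only from −0.08 to 0.15, and in Myc-CaP 0.47 with all 7 tumors and 0.36 with the 3 with lower Uba1.

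Rpl8, on chromosome 15, had 155 such neighbors with a median of −0.44, 99 of them called lower and 5 higher. Rpl7a, on chromosome 2, had 137 with a median of −0.30 and 77 lower, and Rpl6, on chromosome 5, had 121 with a median of −0.30 and 62 lower. The neighbors of Rplp0 had −0.26, close to its own −0.29. Rps29, on chromosome 12, had 58 neighbors with a median of 0.24, 25 of them higher and 0 lower by edgeR. Rpl26 was an exception, with −0.36 beside a median of −0.01 over 133 neighbors, and so was Rpl3, with 0.17 beside −0.42 over 174.

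Of the 16 members called lower 13 had neighbors with a median below 0, and with IFN-γ 12 of 12 did. Of those called higher, 2 of 3 had neighbors with a median above 0, and with IFN-γ 11 of 19 did. The neighbor medians had a median of 0.02 over members not called, −0.19 over those lower and 0.12 over those higher. With IFN-γ these were −0.03, −0.20 and 0.04, so that the value for members not called also lay below 0. By chromosome, 45.2% of the genes tested on chromosome 2 were called lower and 38.1% of those on chromosome 5, and 42.1% of those on chromosome 12 were called higher, against 13.6% lower and 16.2% higher overall. DNA copy number was not measured, and its part in the fold changes of the members was not tested.

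**Figure D5:**
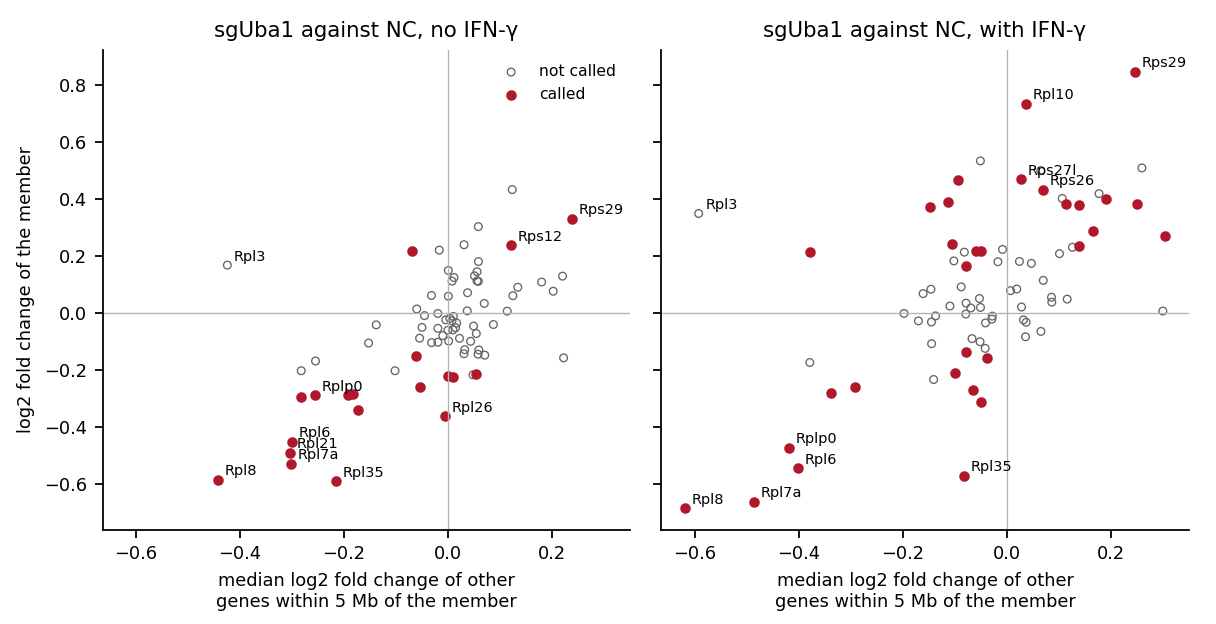
Log2 fold change of each member with sgUba1 in cells (vertical) against the median log2 fold change of the other genes within 5 Mb of it (horizontal), without IFN-γ (left) and with IFN-γ (right), each point 1 member, filled where called. Rpl8, at −0.58 beside −0.44 without IFN-γ, lies at the lower left, and Rpl3, at 0.17 beside −0.42, at the upper left.

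In the plots of members against their neighbors Rpl8, Rpl7a, Rpl6 and Rplp0 lie at the lower left and Rps29 at the upper right. The next comparison asked whether sgUba1 gave the same changes in Myc-CaP tumors. With all 7 sgUba1 tumors 1 member, Rpsa, was called lower and 0 higher, of 81 members tested (all but Rps4l), where 1.89% and 1.15% of all 16202 genes were called. At an unadjusted p under 0.05 there were 9, against 3835 of the 16202 genes, and DESeq2 called 3 members, Rpsa among them.

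Rpsa had 2160, 1790 and 1992 CPM with sgNC, and a lowest value of 1379, a median of 1476 and a highest value of 1569 CPM with sgUba1. All 7 sgUba1 tumors lay below all controls, with a fold change of −0.41 (SE 0.09, adjusted p 0.0397). It was not called with library sizes alone, without the filter on low counts, with a replicate block, or in 9 of 10 omissions of a tumor, the exception being sgUba1 replicate 2. In all, 3 members lay lower without overlap and 0 higher, against 5.38% and 5.54% of all genes. The members' median was −0.04, against 0.00 for all genes, and it lay between −0.16 and 0.05 when a tumor was left out.

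The 7 tumors fall apart by their level of Uba1. Rplp0 had 2494, 2322 and 2408 CPM with sgNC, 1459, 1629 and 1298 CPM in the 3 tumors with lower Uba1, and 2233, 2495, 2320 and 2413 CPM in the other 4. Rpl8 had 901, 541 and 852 CPM with sgNC, 493, 571 and 445 CPM in the first 3, and 1145, 1125, 1156 and 1106 CPM in the other 4. The 4 tumors thus overlapped the controls for Rplp0 and lay above them for Rpl8. They also had 4.41%, 4.08%, 3.74% and 3.61% of counts on mitochondrial genes, a share whose median over all 51 libraries was 2.15%, and whether this bears on the members was not tested.

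For the 3 tumors with lower Uba1 against the 3 controls, edgeR called 0 members higher and 0 lower, where 0% and 0.00638% of all 15679 genes were called. At an unadjusted p under 0.05 there were 35 members, against 2964 of the 15679 genes. DESeq2 called 10 members, and edgeR called 2 without sgNC replicate 2. No share of all genes is given for the counts of 10 and 2, and they are not read against one. Without overlap 28 members were lower and 1 higher, against 14% and 13% of all genes. The members' median was −0.26, against 0.01 for all genes. With library sizes alone it was −0.13, against 0.14, a shift of 0.13 in all genes, and leaving out a tumor gave −0.39 to −0.17. Rplp0 had a fold change of −0.72 (SE 0.12, adjusted p 0.105), lower in 3 of 3 tumors, and Uba1 itself −0.69 (adjusted p 0.094). Rpl21, with 776, 676 and 728 CPM against 511, 586 and 444 CPM, had −0.51, and Rpl26, with 650, 474 and 576 CPM against 397, 448 and 403 CPM, had −0.45. None of these passed the threshold. Across 79 members r with the effect in cells was 0.29, and 0.41 with the effect in cells with IFN-γ, against 0.04 for all 7 tumors and cells.

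Leukocyte markers moved in these tumors. Of 12 tested, 4 were called higher with all 7 sgUba1 tumors and 0 lower by edgeR, with a median of 0.82. Their summed level was 233, 403 and 247 CPM with sgNC and ran from 405 to 643 CPM with sgUba1, and Lyz2 was the most abundant. Summed fibroblast markers were 875, 1580 and 1004 CPM with sgNC, and 1812, 1671, 3148, 1104, 1177, 1254 and 1755 CPM with sgUba1, and 0 of 10 were called by edgeR (2 at an unadjusted p under 0.05). Of endothelial markers 0 of 8, of muscle markers 0 of 9 and of prostate markers 0 of 7 were called. The most abundant muscle marker, Tnni2, had a median of 87.9 TPM in Myc-CaP tumors but also 52 TPM in cultured Myc-CaP cells. Muscle markers summed to 55, 51.5 and 36.4 CPM with sgNC and to 306, 111 and 66.2 CPM in the 3 tumors with lower Uba1. They ran from 50.7 to 60.3 CPM in the other 4. Endothelial markers summed to 164, 175 and 142 CPM with sgNC and to 110, 150 and 115 CPM in these 3 tumors. In the other 4 they had 216, 229, 250 and 266 CPM. The part of these cell types in the fold changes of the members was not tested.

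In B16-BL6 tumors the guide lowered Uba1 in all 4 tumors (fold change −0.92, adjusted p 0.000294). edgeR called 0 members higher and 0 lower, where 0.268% and 0.456% of all 17539 genes were called, with 0 members by DESeq2. At an unadjusted p under 0.05 were 11 of 81 tested (all but Rpl3l), against 2861 of the 17539 genes. The median of members was −0.11 and that of all genes 0.01, with 70 of 81 below 0, and the median lay between −0.12 and −0.08 under the other scalings. Without overlap 9 members were lower and 2 higher, against 8.01% and 7.29% of all genes.

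Rps19, the gene most often mutated in Diamond-Blackfan anemia, had 449, 468 and 409 CPM with sgNC and 353, 385, 402 and 363 CPM with sgUba1. The groups did not overlap, but the fold change of −0.23 did not pass (SE 0.07, adjusted p 0.181). Rpl13a had 850, 872 and 787 CPM and then 695, 780, 721 and 686 CPM (−0.22, adjusted p 0.193). Rpl7l1, a factor of early large-subunit assembly, had 87.8, 88.7 and 90.3 CPM and then 102, 100, 99.8 and 111 CPM (0.22, adjusted p 0.149). Rpl13a is named here after its values were seen. Rpl8 overlapped between the groups, with 991, 1056 and 945 CPM against 858, 998, 966 and 946 CPM. Summed leukocyte markers were 129, 110 and 185 CPM with sgNC and 223, 200, 218 and 183 CPM with sgUba1, with 0 of 13 called by edgeR (7 at an unadjusted p under 0.05). Summed melanoma markers were 15838, 16775 and 14733 CPM with sgNC and 12823, 13434, 14036 and 15023 CPM with sgUba1, with 0 of 8 called by edgeR and 4 at an unadjusted p under 0.05. Muscle markers summed to 1104 CPM in sgUba1 replicate 4, which had the lowest share of members (3.54% of counts), and to between 55.5 and 430 CPM in the other tumors. Their part in the members' values was not tested.

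Overexpression asked the opposite question. Of 80 members tested (all but Rps3a2 and Rps4l), edgeR called 0 higher and 0 lower in OE tumors, where 0.0202% and 0.00673% of all 14853 genes were called, with 1 member by DESeq2. At an unadjusted p under 0.05 were 10 members, against 2698 of the 14853 genes. The members' median was 0.09, against 0.00 for all genes, and 0.02 with library sizes alone, with 60 of 80 above 0. Without overlap 26 members were higher and 2 lower, against 10.7% and 10.1% of all genes.

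Rpl26 stood out: it had 579, 593 and 500 CPM with EV and 999, 770, 789 and 726 CPM with OE. All 4 OE tumors lay above all controls, yet the fold change of 0.56 had an adjusted p of 0.124 (SE 0.12) by edgeR, and it was the 1 member called by DESeq2. Without OE replicate 1 edgeR called 1 member. Rplp0 had 2203, 2206 and 1955 CPM with EV and 2534, 2252, 2491 and 2380 CPM with OE (0.19, adjusted p 0.254). Muscle markers summed to 1648 CPM in OE replicate 1 and 415 CPM in OE replicate 2, and their part was not tested. Leukocyte markers summed to 327, 332 and 403 CPM with EV and 114, 248, 413 and 260 CPM with OE, with 0 of 10 called by edgeR and 5 at an unadjusted p under 0.05. Prostate markers summed to 5332, 5182 and 4941 CPM with EV and to 3161, 3923, 3961 and 4663 CPM with OE. All OE tumors thus lay below all EV tumors for these markers, and their part was not tested.

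TAK-243 was also given to mice. Of 81 members tested (all but Rps4l), edgeR called 0 higher and 0 lower in the 5 treated tumors, where 0.0867% and 0.0578% of all 17299 genes were called, with 0 members by DESeq2. At an unadjusted p under 0.05 were 3 members, against 2587 of the 17299 genes. The median was −0.12, against 0.01 for all genes, with 80 of 81 members below 0. The median stayed between −0.13 and −0.08 under other scalings and between −0.17 and −0.07 when a tumor was left out. No member lay wholly above or below the vehicle tumors, against 0.884% and 1.15% of all genes.

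The genes that fell most in cells overlapped here. Rpl3 had a lowest value of 240, a median of 265 and a highest value of 294 CPM with vehicle, and 241, 241, 261, 205 and 276 CPM with TAK-243 (−0.11, adjusted p 0.577). Rpl10a ran from 585 to 763 CPM with vehicle and had 603, 577, 693, 553 and 692 CPM with TAK-243 (−0.09, adjusted p 0.687), and Rpl13a ran from 947 to 1274 CPM with vehicle and had 957, 1004, 1205, 883 and 1144 CPM with TAK-243 (−0.15, adjusted p 0.53). Across members r between the effect in cells and in tumors was −0.00, and the difference between them was not tested. Leukocyte markers summed to between 182 and 266 CPM with vehicle and to 383, 401, 284, 410 and 204 CPM with TAK-243, and 3 of 13 were called higher, S100a9 (4.03, adjusted p 0.0107), S100a8 (3.63, adjusted p 0.0107) and Itgam (0.82, adjusted p 0.0488). Keratinocyte markers summed to 99.4 CPM in TAK-243 replicate 1. Muscle markers summed to 983 CPM in vehicle replicate 6, which had the lowest share of members in its group (4.47% of counts), and to between 33.6 and 180 CPM in the other vehicle tumors. Their part in the members' values was not tested.

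Other genes of translation give a frame for the members in TAK-243 cells without IFN-γ, where 32.3% of all genes were called higher and 34% lower. Of 20 further genes with 5′TOP messengers, mostly translation factors, 16 were called higher and 3 lower, with a median of 0.25. The largest was Eif3h, a subunit of an initiation factor, from 281 to 286 CPM in controls to 511 to 530 CPM with TAK-243 (0.88, adjusted p 1.71e-20). Of 39 genes of ribosome assembly 15 were higher and 19 lower (median −0.01), with Rrp1b at −1.22 (adjusted p 1.88e-16) and Rrs1 at −0.92 (adjusted p 6.63e-14). Sbds, which frees the large subunit for use, had 0.83 (adjusted p 9.07e-15).

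Of 78 genes of the mitochondrial ribosome 9 were called higher and 56 lower, with a median of −0.43. Mrpl36 had a fold change of −2.09 (adjusted p 2.72e-11). Of 70 genes of oxidative phosphorylation 12 were higher and 43 lower (median −0.21). Of 64 replication-dependent histone genes 0 were higher by edgeR and 61 lower (median −1.52).

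Of 13 ubiquitin ligases and proteases that act on ribosomes or on MDM2 and p53, 8 were higher and 2 lower, with Mdm2 at 0.99 (adjusted p 3.11e-16) and Zfp598, which marks collided ribosomes, at −0.84 (adjusted p 3.88e-12). Of 20 genes that control these messengers through mTOR and Myc 5 were higher and 10 lower. Myc had 661 to 676 CPM in controls and 104 to 110 CPM with TAK-243 (−2.64, adjusted p 7.78e-31), and Eif4ebp2, a repressor of cap-dependent translation, had −1.87 (adjusted p 4.14e-27). Of 11 genes of the p53 response 7 were higher and 4 lower, with Cdkn1a at 2.16 (adjusted p 2.5e-19). Of 8 markers of the Myc-CaP line 3 were higher and 5 lower, with Fkbp5 at −2.94 (adjusted p 1.37e-31). Each named gene was the same way in both libraries.

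With sgUba1 in cells without IFN-γ, where 16.2% and 13.6% of all genes were called higher and lower, 3 of the 20 5′TOP genes were higher and 4 lower, with Eef1d at −0.54 (adjusted p 3.73e-05), 2 of 39 assembly genes were higher and 7 lower, with Sbds at −0.58 (adjusted p 8.13e-05), and 5 of 78 mitochondrial ribosomal genes were higher and 7 lower. With sgUba1 and IFN-γ, where 17% and 22.4% of all genes were called, assembly genes had 3 higher and 20 lower, and oxidative phosphorylation genes had 28 higher and 11 lower. With IFN-γ alone in the TAK-243 experiment, where 19.6% and 9.39% of all genes were called, 15 of 20 5′TOP genes were higher and 3 lower, 31 of 78 mitochondrial ribosomal genes were higher and 0 lower by edgeR, and 61 of 64 histone genes were higher. In tumors of B16-BL6, OE and TAK-243, edgeR called 0 genes of the lists of 5′TOP, assembly, mitochondrial ribosomal and oxidative phosphorylation genes. In TAK-243 tumors 58 of 65 histone genes had an unadjusted p under 0.05 and 7 were called lower. With all 7 Myc-CaP sgUba1 tumors 1 of the 20 5′TOP genes, Tpt1, was called lower (−0.49, adjusted p 0.0426).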

How the data were processed

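What the authors deposited as counts are expected counts, with fractions, although the design had assumed whole counts, and they were rounded before the fits. The authors also deposited TPM, used for levels between genes and for shares. The submitters' notes name kallisto, without a version, and mm10. The study's methods describe digestion of ribosomal RNA, and the labels poly-A selection. Of 40077 identifiers, 39142 matched GENCODE M21 with version and 39867 without, and all 82 members matched.

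Samples were grouped by their labels. Each tumor experiment was fitted alone, and each cell experiment with its 8 libraries together, in R 4.3.3 with edgeR 4.0.16 and limma 3.58.1: filterByExpr, TMM factors, the quasi-likelihood test (two-sided), and Benjamini-Hochberg adjustment over all genes tested with a threshold of 0.05. Each p-value measures only the spread between these samples. Alternatives were library sizes alone, RLE factors, factors without the members, DESeq2 1.42.0, no filter on low counts, the counts of -ps copies added, the replicate number as a block, and each library left out. Where 1 library of a group is left out of 2, the other is assumed to vary like the other groups. The paper itself used edgeR and limma. The code was tested on simulated data. Python 3.11.15, pandas 2.3.3, numpy 2.4.6 and matplotlib 3.10.9 were used for sequences and figures.

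Members and lists were chosen with earlier results of these data known. Genes named are Uba1, members with well-known roles, the stalk and Rpsa, paralog pairs, the 5 most abundant members, up to 5 called increases and 5 decreases per comparison without overlap and with a mean of at least 1 CPM, up to 3 changes from each other list, and the most abundant marker of each cell type. Near-identical copies make the counts of single genes uncertain. Sequences are from RefSeq. Values of some genes are not reported here.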

Additional observations from a re-analysis of the deposited data

Results flagged for a closer look

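A sample far from the others of its group was looked for in members named, Uba1 and shares of a library, in 177 groups of 4 to 7 samples, where chance flags about 1 in 20. It was found in 4. Rps27l had 49.2 CPM in OE replicate 3 and 65 to 65.5 CPM in the other OE tumors. Rps29 had 344 CPM in OE replicate 1 and 429 to 440 CPM in the others. Rplp1 had 624 CPM in vehicle replicate 1 and 731 to 779 CPM in the others. Rpl23a had 862 CPM in vehicle replicate 6 and 979 to 1030 CPM in the others.

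Differences between groups under the same contrast were tested as interactions by edgeR in cells, with 2 libraries in each of 4 groups. The effect of sgUba1 differed with IFN-γ, in the positive direction, for 5 members, where 0.663% of all genes were called positive and 3.97% negative: Rps21 (0.51), Rpl38 (0.46), Rpl36a (0.39), Rps27l (0.36) and Rpl23 (0.35), in log2 units. The effect of TAK-243 differed with IFN-γ, in the negative direction, for 29 members, where 2.01% of all genes were called negative and 0.371% positive, the strongest being Rpl10 (−0.31), Rpl37 (−0.27), Rps21 (−0.27), Rps15 (−0.24) and Rps29 (−0.24). None of the 29 calls, and none of the 5, held under all 15 alternatives. The count of 29 was 4 with library sizes alone and ran from 0 to 20 when a library was left out, and the count of 5 ran from 0 to 39. No explanation of these was tested.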

How the results depend on the processing

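In all, 329 alternative values were computed for the counts of members called, their medians and the share of a library. Counts were compared as totals, higher and lower together, and medians by distance alone, so a change of direction was not looked for. TAK-243 in cells without IFN-γ had 36 higher and 14 lower, and 17 and 34 with library sizes alone, and its total still counted as near. By this rule 260 values stayed near the value given and 69 did not. The cause was not tested. Counts of members in this section are given without the share of all genes under the same setting. Counts of 0 in B16-BL6 and TAK-243 tumors stayed 0 under every alternative run, also when each tumor was left out.

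With library sizes alone the count for sgUba1 in Myc-CaP tumors was 0, that for IFN-γ in NC cells 0 and that for the interaction of TAK-243 with IFN-γ 4, and medians were 0.024 for OE, −0.052 and −0.11 for TAK-243 in cells without and with IFN-γ, and 0.13 for IFN-γ in the TAK-243 experiment. The count for IFN-γ in NC cells was also 0 with RLE factors, with factors without the members and with the counts of copies added. With DESeq2 it was 3 for sgUba1 in Myc-CaP tumors, 1 for OE, 8 for the interaction of sgUba1 with IFN-γ and 10 for the tumors with lower Uba1. Without the filter it was 0 for sgUba1 in Myc-CaP tumors, 29 for sgUba1 in cells, 11 for IFN-γ in NC cells and 15 for the interaction of sgUba1. With the replicate block, for which nothing in the labels says that equal numbers form a pair, it was 0 for sgUba1 in Myc-CaP tumors, 3 for IFN-γ in NC cells and 8 for the interaction of sgUba1. With the 3 tumors with lower Uba1 alone the count was 0 and the median −0.26. The median share of a library was 13.4% of TPM and 4.53% of counts.

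When each library was left out in turn, the count ran from 0 to 1 for sgUba1 in Myc-CaP tumors and for OE, and from 0 to 2 for the tumors with lower Uba1. In cells it ran from 9 to 46 for sgUba1, from 16 to 53 for sgUba1 with IFN-γ, and from 0 to 47 for IFN-γ in NC cells. For the interactions it ran from 0 to 39 (sgUba1) and from 0 to 20 (TAK-243), and the median for TAK-243 in cells ran from 0.009 to 0.06. The tumors with lower Uba1, their alternatives, and the interactions without the filter, with copies added and with a library left out were chosen after seeing the data. With 2 libraries in each group of cells, differences smaller than the spread between libraries are not detectable.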
